A study of Mus musculus with 18 samples.

Results

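The livers of mice recovering from D-galactosamine (GalN) were compared between 24 h and 48 h after the injection. The comparison rests on 6 of the 18 arrays of the series, the 3 labelled liver 48 hour and the 3 labelled liver 24 hour, and was read across every gene with a probe set of its own on the array. That gave 18193 genes, each read from its brightest set on average across the 18 arrays, and 12071 of them were tested in liver. All animals were male C57BL6 mice, an inbred strain. The 24 h and 48 h groups had each received GalN at 4.5 g per kg into the peritoneum. The sham group had received saline and was killed at 24 h, and its 3 liver arrays give the undamaged level and part of the spread. No sham liver at 48 h was analysed here, so effects of GalN and of a later hour of death cannot be told apart at 48 h. Liver and kidney were perfused in place with buffer and an RNA preservative, and total RNA of a liver homogenate was hybridised to Affymetrix whole-genome mouse arrays. The array letters A, B and C were taken as 3 mice a group. The protocol's wording can also be read as pooled RNA, and then the p-values measure only the spread between arrays.

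GalN is taken up by hepatocytes and metabolised along the galactose pathway into UDP-sugars. This traps uridine, and the fall in UTP stops RNA synthesis and is followed by hepatocyte death. Surviving hepatocytes then restore their nucleotide pools, resume transcription and divide to replace the lost tissue. A liver in this state is known to trade its differentiated functions (bile acid, lipid, amino acid and glucose metabolism, and secretion of plasma proteins) against stress responses and growth.

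Values are log2 gcRMA values, on which a difference of 1 is a 2-fold change. Differences are 48 h minus 24 h throughout unless another pair is named. Gene p-values are from limma, adjusted by Benjamini-Hochberg over the 12071 genes, and a gene was called at an adjusted p below 0.05. The lowest value of the table was 2.21. Where the lower group had an array less than 1 above it, or a reading that recurs exactly in another array, the fold is given as "at least". Array precision depends on the number of arrays, which was 3 a group. The array of 48 h liver C stood apart: its signal difference between the 3' and 5' actin control sets was 2.56 against 1.48 to 1.95 in the other 8 liver arrays, and its correlation with the other 48 h livers was 0.983 to 0.984 where those 2 correlated at 0.995. List counts of 4 or more that moved by over 1.5 times without 1 array are given with that array named. Counts of 3 or fewer often moved that much, so they describe these arrays and little more.

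The homogenate also holds cells other than hepatocytes. None of the 21 macrophage and Kupffer cell markers tested was called between 24 h and 48 h, beside 27.8% of all genes tested. Their summed linear signal was 11892 to 17825 in the sham livers, 30343 to 34218 at 24 h and 26236 to 30576 at 48 h. The summed endothelial signal was 2734 to 3469 in the sham livers, 4982 to 9056 at 24 h and 4090 to 4959 at 48 h, and 2 of 18 markers fell, Fcgr2b (log2 difference -1.15, adjusted p = 0.0129) and Sox18 (log2 difference -0.69, adjusted p = 0.0132). The 2 falls are 11.1% of the 18, beside 13.1% of all genes tested. Without 24 h liver B, 5 of the 18 were called lower. Of 14 stellate cell and fibroblast markers 3 fell (21.4%), among them Dcn (log2 difference -0.83, adjusted p = 0.0167) and Ecm1 (log2 difference -1.02, adjusted p = 0.0207). That count was 0 without 24 h liver A and 1 without 24 h liver C or 48 h liver A. Of 11 neutrophil markers 7 were less than 1 above the lowest value in all 9 liver arrays (Cxcr2, Mmp8, Mmp9, Ngp, Camp, Ltf and Mpo). Of 16 lymphocyte markers 11 were, among them Cd3d, Cd3e, Cd3g, Cd8b1, Cd79a and Ms4a1. The most abundant of the others were Elane, Csf3r and S100a9 for neutrophils and Ighm, Cd4 and Cd8a for lymphocytes. In each of these lists 4 markers were tested and 0 were called. The hepatocyte markers summed to 655232 to 680156 in the sham livers, 577015 to 590970 at 24 h and 540086 to 597601 at 48 h. Of 13 tested 1 rose (7.69%) and 3 fell (23.1%), beside 14.6% and 13.1% of all genes. In a homogenate, fewer cells of a type and less RNA per cell cannot be told apart. The part of these cell types in the results below was not tested.

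Between 24 h and 48 h, 3355 of the 12071 genes changed, which is 27.8% of those tested. Of these, 1768 were higher at 48 h (14.6%) and 1587 were lower (13.1%). The change was at least 2-fold for 1159 of the higher and 998 of the lower genes, and the median over all genes tested was 0.0. In 3343 of the 3355 the 48 h arrays did not overlap the 24 h arrays. With so few arrays a group a call nearly requires this, so the count is no added support for the calls. Genes that were not called can also lack overlap, as Pdk4 and Pck1 below, and their share among all genes tested is not given here. In 240 of the 3355 the lower group had an array below the detection level. In 331 more of the 3355 the lower group had only a reading that recurs exactly, which can lie far above background. In 35 all 6 arrays were below the detection level. Of the 3355, 51 passed the filter only through their higher group, so those had to differ to be tested. Ddias, Eda2r, Mapk8ip3 and Psrc1, named below, are among these, and their values are given with no test. The shares for the other liver comparisons from the same fit, which use some of the same arrays, were 32.9% for 24 h against sham and 10.2% for 48 h against sham. Of the 3355 calls, 2153 (64.2%) were made in each of the 9 fits that left out 1 array.

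Cyp8b1, the sterol 12-alpha-hydroxylase that directs bile acid synthesis towards cholic acid, rose most. It read 13.23, 13.24 and 12.94 in sham livers A, B and C, 5.11, 4.52 and 3.08 at 24 h and 12.52, 11.32 and 10.78 at 48 h. Liver C at 24 h was below the detection level, and every 48 h liver lay above the 24 h livers and below the sham livers, so that the rise was at least 153-fold (log2 difference 7.30, SE 0.60, adjusted p = 0.000495). G6pc encodes the catalytic subunit of glucose-6-phosphatase, which releases glucose into the blood. It read 3.99, 7.91 and 2.92 at 24 h and 12.86, 12.06 and 11.46 at 48 h beside 12.18, 11.14 and 11.999 in sham, a rise of at least 136-fold (log2 difference 7.19, SE 1.20, adjusted p = 0.00481). Its 24 h livers scattered widely, with liver B well above A and C, but all lay below every 48 h and sham liver.

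Hacl1, a peroxisomal lyase that shortens 2-hydroxy fatty acids, read 8.86, 8.39 and 6.66 at 24 h and 12.42, 12.69 and 12.86 at 48 h, 25.7-fold higher (log2 difference 4.68, adjusted p = 0.00112). Upp2, the uridine phosphorylase of liver, read 7.10, 9.65 and 7.58 at 24 h and 12.11, 12.04 and 14.05 at 48 h (log2 difference 4.62, adjusted p = 0.00477), still under its 14.43, 14.39 and 14.57 in sham, though the difference from sham was not called (adjusted p = 0.214). Hsd3b2, a 3-beta-hydroxysteroid dehydrogenase, rose from 3.51, 4.43 and 4.55 to 8.18, 9.66 and 8.63 (log2 difference 4.66, adjusted p = 0.000641). Its family has near-identical members, so its probes may read more than 1 of them. B3galt1, a galactosyltransferase, rose from 4.03, 4.68 and 3.92 to 8.36, 9.52 and 8.69 (log2 difference 4.65, adjusted p = 0.00104), and both of its other expressed probe sets moved the same way. The rest of the 12 largest rises were Hectd2os, Fam47e, Lrit1, Tmtc2, Bhlhb9 and Tnfaip8l1, with log2 differences of 4.73 to 5.71. Bhlhb9 was high only at 48 h: it read 3.48, 4.57 and 2.85 in sham, 4.06, 2.78 and 4.57 at 24 h and 8.76, 8.96 and 8.75 at 48 h, and its 48 h level was above sham (log2 difference from sham 5.19, adjusted p = 0.00488). Lrit1 was also above sham at 48 h (log2 difference from sham 2.13, adjusted p = 0.0487).

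Several of the largest falls were of genes at the lowest value of the table in sham livers. Ddias, named as a DNA-damage-induced apoptosis suppressor, was at the floor of the table in all 3 sham and all 3 48 h livers and read 9.02, 8.32 and 7.43 at 24 h. Its fall was at least 32.9-fold (log2 difference -6.04). Eda2r, a receptor of the tumour necrosis factor family and p53 target, read 8.03, 6.39 and 7.05 at 24 h and 2.48, 3.12 and 2.21 at 48 h (log2 difference -4.55). Mapk8ip3, a scaffold of the JNK pathway, was at the floor in all sham and 48 h livers and read 6.54, 6.65 and 5.73 at 24 h (log2 difference -4.09). Epm2aip1, a partner of laforin, fell from 10.87, 10.85 and 11.05 to 6.48, 7.04 and 4.25 (log2 difference -5.00, adjusted p = 0.00226), and its 3 other expressed probe sets fell too. Chka, choline kinase, the first enzyme of phosphatidylcholine synthesis from choline, fell from 10.35, 8.74 and 10.51 to 5.53, 6.56 and 5.42 (log2 difference -4.03, adjusted p = 0.00187). Prmt6, an arginine methyltransferase of histones, read 6.95, 6.77 and 6.52 at 24 h and 2.84, 2.87 and 2.88 at 48 h. Its fall was at least 11.6-fold (log2 difference -3.88, adjusted p = 2.76e-05). All its 48 h and sham livers were below the detection level, so their narrow range is one of background readings and the small p rests partly on it. Plk2, Slc39a6, Ddit4l, H2bc21, Phlda3 and Zfp612 completed the 12, with log2 differences of -3.95 to -4.38.

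**Figure D1:**
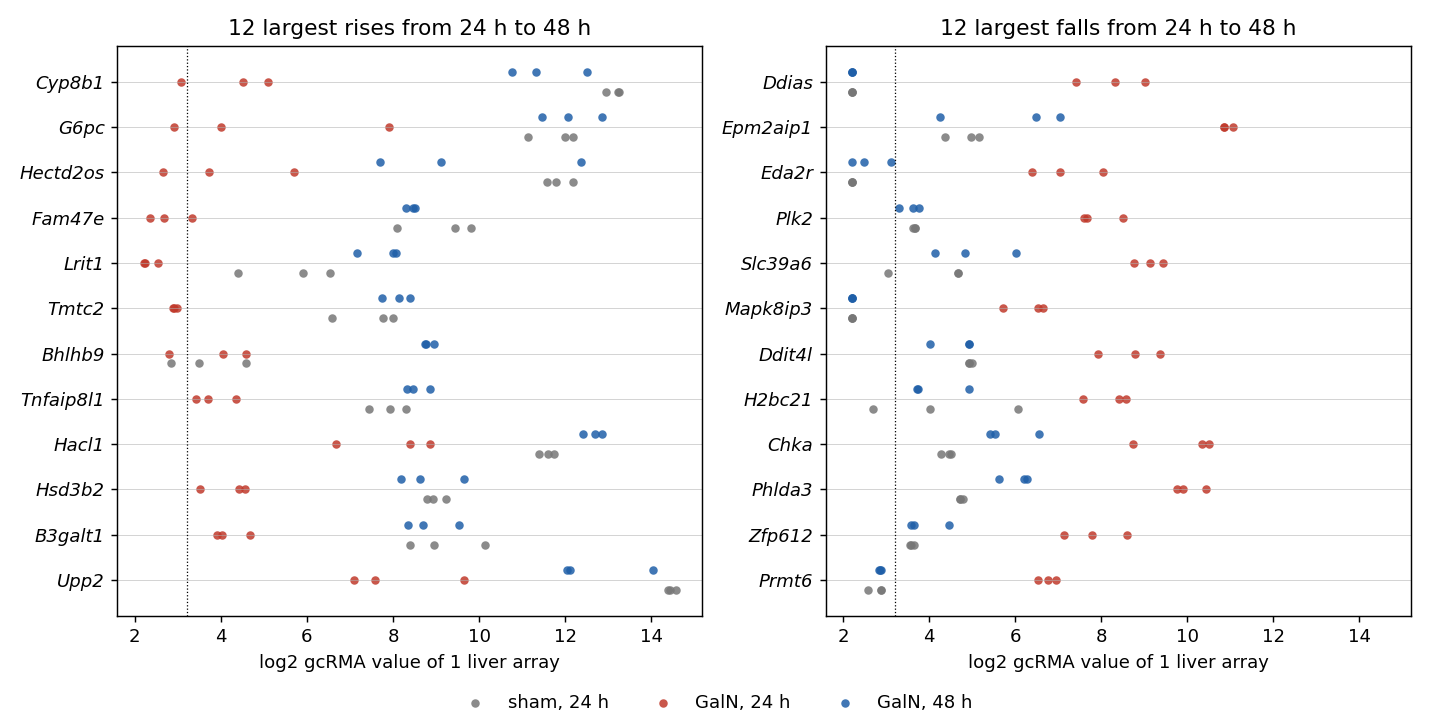
Log2 gcRMA value (horizontal axis) of each of the 9 liver arrays for the 12 genes with the largest rises (left) and the 12 with the largest falls (right), with sham in grey, 24 h in red and 48 h in blue. The dotted line is the detection level of 3.213. In all 24 genes the red and blue points do not overlap, which was a condition for choosing them.

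Targets of p53, which are switched on by DNA damage and by stress of the nucleolus, fell together. Of 21 tested, 14 fell, 1 rose and 6 were not called, and the median was -2.04. The falls ran from -1.41 to -4.55. They include Eda2r and Psrc1, 2 genes that entered the test only through their 24 h livers. Cdkn1a, the cell cycle inhibitor p21, read 6.12, 6.36 and 6.25 in sham, 13.40, 13.37 and 13.44 at 24 h and 10.86, 10.92 and 7.82 at 48 h. Livers A and B at 48 h were far above sham, while liver C was nearer to it, and the 48 h livers did not overlap the 24 h livers (log2 difference -3.54, SE 0.77, adjusted p = 0.0138). It was not called when the sham arrays were left out of the fit. At 48 h it was still above sham (log2 difference from sham 3.62, adjusted p = 0.0298). Mdm2, the ubiquitin ligase that degrades p53, fell from 10.72, 10.41 and 10.09 to 8.26, 7.89 and 7.34 (log2 difference -2.58, adjusted p = 0.000779) and was no longer different from sham by the test (adjusted p = 0.272). Phlda3, an inhibitor of AKT signalling, fell from 10.43, 9.91 and 9.77 to 6.29, 6.22 and 5.62 (log2 difference -4.00, adjusted p = 0.000184) and stayed above sham (log2 difference from sham 1.30, adjusted p = 0.0176). Plk2, a polo-like kinase, fell from 8.52, 7.68 and 7.61 to 3.30, 3.76 and 3.62 (log2 difference -4.38, adjusted p = 0.000183), Psrc1, which binds microtubules, from 6.23, 5.41 and 5.70 to 2.28, 2.28 and 2.28 (log2 difference -3.50), and Zmat3, an RNA-binding protein, from 9.06, 8.76 and 9.19 to 5.80, 5.85 and 5.84 (log2 difference -3.17, adjusted p = 0.000291). The 14 falls were also counted in each fit without 1 array. Those fits kept the filter of all 9 liver arrays, so Eda2r and Psrc1 give no support there.

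Ribosome biogenesis factors, which transcribe, cut and assemble ribosomal RNA in the nucleolus, fell as a group. Of 28 tested, 18 fell, 0 rose and 10 were not called, with a median of -1.19, and the called falls ran from -0.60 to -3.15. Nop2, an rRNA methyltransferase, read 7.65, 7.70 and 7.77 in sham, 10.02, 9.99 and 10.14 at 24 h and 8.04, 8.15 and 7.62 at 48 h, so that the 48 h livers were again in or near the sham range (log2 difference -2.12, SE 0.15, adjusted p = 0.000303). Nop56, a core protein of the methylating small nucleolar particles, fell from 10.56, 10.36 and 10.45 to 9.03, 9.17 and 8.84 (log2 difference -1.44, adjusted p = 0.000785) and remained above sham (log2 difference from sham 1.03, adjusted p = 0.00879). Nop16 fell from 10.73, 10.50 and 10.76 to 9.59, 9.38 and 9.60 (log2 difference -1.14, adjusted p = 0.000837). Polr1b, a large subunit of RNA polymerase I, fell from 9.06, 8.98 and 8.44 to 6.93, 7.06 and 6.57 (log2 difference -1.97, adjusted p = 0.00145). Relative to the sham mean, the median of the list was 1.82, 1.79 and 1.64 in 24 h livers A, B and C and 0.68, 0.85 and 0.04 at 48 h, lowest in liver C. Without that liver 19 factors fell, and the rank product test that the study's design names called 5. The proteins of the ribosome itself did not follow: of 21 cytosolic ribosomal proteins tested 4 rose, none fell and the median was 0.19. Those rises were small, 0.20 to 0.63, and 1 was left without 48 h liver C, 24 h liver B or C, 48 h liver A, or sham liver A or B, and 2 without sham liver C. Rplp0, a ribosomal stalk protein used as a reference gene, read 15.21, 15.04 and 15.18 at 24 h and 15.16, 15.03 and 15.22 at 48 h (adjusted p = 0.985).

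Proteasome subunits moved the other way. The proteasome degrades ubiquitin-tagged proteins, in a core of alpha and beta subunits capped by ATPases and lid proteins. Of 31 subunits tested, 21 rose, none fell and 10 were not called, and the median was 0.70. The called rises ran from 0.54 to 1.55. Psmb4, a core beta subunit, read 14.22, 14.21 and 14.16 in sham, 14.16, 14.21 and 14.08 at 24 h and 15.18, 15.10 and 14.97 at 48 h, and every 48 h liver lay above all sham and 24 h livers (log2 difference 0.93, SE 0.07, adjusted p = 0.000403). Psmb3, also a beta subunit, rose from 12.60, 12.57 and 12.41 to 13.46, 13.46 and 13.68 (log2 difference 1.00, adjusted p = 0.000569), and Psma3, an alpha subunit, from 12.90, 12.87 and 12.81 to 13.81, 13.64 and 13.99 (log2 difference 0.96, adjusted p = 0.00126). Psmc3, an ATPase of the cap, rose from 11.53, 11.52 and 11.73 to 12.82, 12.69 and 12.46 (log2 difference 1.06, adjusted p = 0.000858). All 4 were above sham at 48 h, with log2 differences from sham of 0.59 to 0.89 and adjusted p-values of 0.00299 to 0.019. At 48 h 18 of the 31 subunits were above sham, against 3 at 24 h. Of all 12071 genes, 753 were above and 475 below sham at 48 h, and 2161 above and 1805 below at 24 h. The subunits called at 24 h were thus no larger a share, either way, than among all genes. At 24 h 4 were below sham, Psma3, Psmb1, Psmb7 and Psmd13, with log2 differences from sham of -0.37 to -0.76, and none was at 48 h. Leaving out 1 array gave 17 to 26 rises and no fall. The rank product test called 0 of them.

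**Figure D2:**
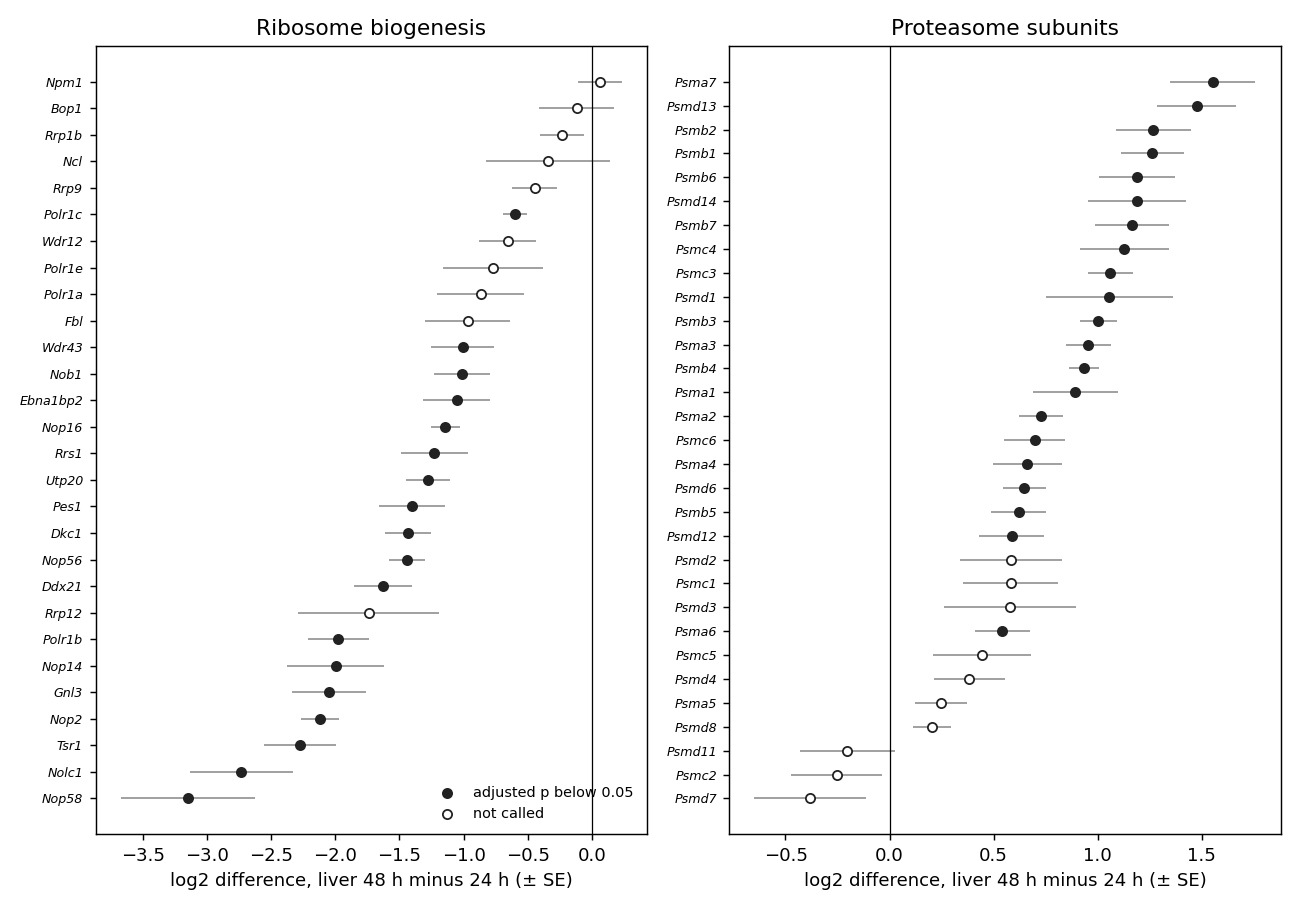
Log2 difference, 48 h minus 24 h (horizontal axis, with its standard error from limma as a bar), of each tested ribosome biogenesis factor (left) and proteasome subunit (right), 3 livers against 3. Filled points have an adjusted p below 0.05: 18 of 28 on the left, all below 0, and 21 of 31 on the right, all above 0.

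Because the subunits moved together, their promoters were read for the core of the antioxidant response element, through which transcription factors of the NRF family are known to control proteasome genes. The motif TGACNNNGC was searched on both strands in the 250 bases before each start in RefSeq promoter windows (GRCm38.p6). It was present in 4 of the 27 windows of the 25 tested subunits that matched by symbol (14.8%), and in 10.2% of all 32851 windows. The difference between these shares was not tested. The 3 called subunits with the smallest p among those that hold it are shown, 5' to 3' in the direction of the gene, with the motif in capitals.
Psmb6 (chr11:70525107-70525356, plus strand): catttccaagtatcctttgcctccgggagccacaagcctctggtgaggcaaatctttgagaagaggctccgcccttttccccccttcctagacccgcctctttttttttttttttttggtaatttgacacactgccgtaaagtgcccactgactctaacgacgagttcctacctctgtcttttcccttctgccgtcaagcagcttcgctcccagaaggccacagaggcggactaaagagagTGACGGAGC
Psmc6 (chr14:45329574-45329823, plus strand): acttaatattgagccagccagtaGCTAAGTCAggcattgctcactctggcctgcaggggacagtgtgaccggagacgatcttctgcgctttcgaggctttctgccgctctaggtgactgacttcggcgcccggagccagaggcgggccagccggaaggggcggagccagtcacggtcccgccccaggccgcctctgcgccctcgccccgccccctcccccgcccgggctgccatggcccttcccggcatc
Psmb5 (chr14:54617996-54618245, minus strand): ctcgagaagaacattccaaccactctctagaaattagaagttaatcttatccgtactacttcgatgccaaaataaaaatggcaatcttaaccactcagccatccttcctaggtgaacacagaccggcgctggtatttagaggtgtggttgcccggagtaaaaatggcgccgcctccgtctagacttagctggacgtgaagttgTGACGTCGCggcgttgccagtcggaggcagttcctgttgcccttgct
Psmb6 ends with the motif at the start site, Psmb5 has it 47 bases before the start, and Psmc6 has it on the opposite strand 227 bases before. Psmb5 and Psmb6 are catalytic beta subunits of the core and Psmc6 is an ATPase of the cap, and their log2 differences were 0.62 (adjusted p = 0.0126), 1.19 (adjusted p = 0.00353) and 0.70 (adjusted p = 0.0118). For the ribosome biogenesis factors the E-box CACGTG, which MYC is known to bind, was present in 1 of 26 windows and in 6.02% of all windows. Myc itself read 4.83, 4.96 and 6.64 in sham, 8.21, 8.53 and 8.18 at 24 h and 5.84, 9.05 and 6.63 at 48 h. At 48 h liver B lay above every 24 h liver and A and C lay below them, and Myc was not called (adjusted p = 0.38).

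Antioxidant genes controlled by NRF2 fell in part. Of 21 tested, 6 fell, 1 rose and 14 were not called (median -0.48). Gclc, the catalytic subunit that limits glutathione synthesis, read 11.71, 12.41 and 12.12 in sham, 15.12, 15.02 and 15.22 at 24 h and 12.42, 12.58 and 10.77 at 48 h. It was 9.17-fold lower at 48 h (log2 difference -3.20, SE 0.46, adjusted p = 0.00291), with livers A and B close to sham and C below it. Srxn1, sulfiredoxin, fell from 12.99, 13.15 and 13.64 to 9.96, 10.57 and 8.76 (log2 difference -3.50, adjusted p = 0.00297), Txnrd1, thioredoxin reductase, from 13.11, 13.08 and 13.11 to 11.20, 11.42 and 10.76 (log2 difference -1.97, adjusted p = 0.000515), and Hmox1, the haem-degrading oxygenase, from 11.58, 11.06 and 11.42 to 8.96, 9.35 and 8.23 (log2 difference -2.50, adjusted p = 0.00233). None of these 4 was called different from sham at 48 h, with adjusted p-values of 0.0773 to 0.899.

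Other stress lists moved unevenly. Of 16 immediate early and AP-1 genes 4 fell and 0 rose (median -1.17). Atf3, a stress-induced transcription factor, fell from 7.34, 5.73 and 7.41 to 3.09, 3.31 and 3.97, at least 10.1-fold (log2 difference -3.37, adjusted p = 0.00239), and Jun from 10.91, 10.76 and 10.48 to 7.996, 8.57 and 7.83 (log2 difference -2.59, adjusted p = 0.0107), and did not differ from sham by the test (adjusted p = 1). Among 15 heat shock proteins 3 fell (20%) and 2 rose (13.3%), the rises near their share among all genes. Bag3, a co-chaperone, fell from 9.63, 10.70 and 10.62 to 8.17, 8.53 and 7.61 (log2 difference -2.21, adjusted p = 0.00347), while Hspe1, the mitochondrial chaperonin cofactor, rose from 12.73, 13.33 and 13.26 to 14.50, 14.22 and 14.59 (log2 difference 1.33, adjusted p = 0.00311) and was above sham (adjusted p = 0.0309). Of 21 ATF4 response genes 3 fell (14.3%) and 2 rose (9.52%), near or below the shares among all genes. The rises included Asns, asparagine synthetase, from 7.72, 8.24 and 8.57 to 10.77, 10.17 and 10.06 (log2 difference 2.16, adjusted p = 0.0114). Of 21 endoplasmic reticulum chaperone and unfolded protein response genes 2 fell and 0 rose, shares below those among all genes. In the death receptor and BCL2 family 5 of 16 fell and 2 rose. Tnfrsf12a, the receptor of the cytokine TWEAK, which acts on liver progenitor cells, read 4.90, 5.25 and 5.30 in sham, 10.27, 10.31 and 11.39 at 24 h and 7.78, 8.05 and 7.50 at 48 h, 7.36-fold lower (log2 difference -2.88, adjusted p = 0.00121) but still above sham (log2 difference from sham 2.63, adjusted p = 0.00687). Bcl2l1, an inhibitor of apoptosis, fell from 10.23, 10.38 and 10.92 to 9.08, 9.20 and 8.85 (log2 difference -1.47, adjusted p = 0.00307).

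Several lists of hepatocyte metabolism had more rises than falls. In those with falls, from bile acid synthesis to fatty acid synthesis below, the falls were 5.56% to 16.7% of the genes tested. That is near or below the 13.1% among all genes. Bile acid synthesis had 9 rises and 2 falls among 18 genes tested (median 1.00), Cyp8b1 among the rises. The rises numbered 4 without 48 h liver B and to 5 without 48 h liver A or C or any of the sham livers. Hsd3b7, which acts early in the pathway, rose from 11.58, 11.39 and 10.86 to 13.79, 13.70 and 13.26 (log2 difference 2.30, adjusted p = 0.00066). Amacr, a racemase of the side chain, rose from 11.20, 11.33 and 11.18 to 12.65, 12.91 and 12.81 (log2 difference 1.55, adjusted p = 0.000258). Slc27a5, which activates bile acids before conjugation, fell from 14.10, 14.13 and 14.38 to 13.43, 13.49 and 13.54 (log2 difference -0.72, adjusted p = 0.00436). Cyp7a1, the rate-limiting enzyme, read 9.03, 10.02 and 8.67 at 24 h and 10.07, 9.05 and 10.18 at 48 h, with overlapping groups (adjusted p = 0.478). Among 18 bile acid and organic anion transporters 7 rose and 1 fell (median 0.73). Abcg5, a canalicular sterol exporter, rose from 10.16, 10.58 and 10.10 to 11.99, 12.14 and 11.97 (log2 difference 1.76, adjusted p = 0.000606), Abcg2 from 11.10, 10.74 and 10.56 to 12.68, 12.43 and 12.40 (log2 difference 1.70, adjusted p = 0.000528) and Slco2b1 from 9.40, 9.83 and 9.90 to 11.58, 11.96 and 11.59 (log2 difference 2.01, adjusted p = 0.000475). Abcg5 and Abcg2 were above sham at 48 h (adjusted p = 0.0204 and 0.0381). The fall was Slco1a1, a sinusoidal uptake carrier of male liver. It read 11.98, 11.53 and 11.74 in sham, 9.77, 10.53 and 10.35 at 24 h and 7.97, 7.10 and 7.49 at 48 h, and thus went further from sham between the times (log2 difference -2.70, SE 0.28, adjusted p = 0.000891).

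Fatty acid oxidation genes and targets of PPAR alpha, the nuclear receptor of fasting liver, rose in 14 of 25 cases, with no fall and a median of 0.79. Cpt1a, the gate of fatty acid entry into mitochondria, read 11.98, 12.14 and 12.33 in sham, 10.13, 10.59 and 9.78 at 24 h and 12.76, 13.24 and 12.52 at 48 h, 6.36-fold higher and at or above the sham livers (log2 difference 2.67, SE 0.25, adjusted p = 0.000717). Bdh1, which makes the ketone body hydroxybutyrate, rose from 9.88, 10.52 and 9.99 to 13.21, 13.02 and 12.50 (log2 difference 2.78, adjusted p = 0.000522), and Slc25a20, the carnitine carrier, from 10.82, 10.59 and 10.04 to 12.49, 12.49 and 12.94 (log2 difference 2.15, adjusted p = 0.000853). Vnn1, a pantetheinase, read 9.30, 10.41 and 8.72 at 24 h and 13.44, 13.14 and 12.95 at 48 h (log2 difference 3.70, adjusted p = 0.00138), higher than its 10.97, 11.28 and 10.40 in sham (log2 difference from sham 2.29, adjusted p = 0.021). Pdk4, which holds back pyruvate oxidation, read 6.18, 4.95 and 6.08 at 24 h and 7.49, 7.34 and 6.49 at 48 h. Its groups did not overlap, but it missed the threshold (adjusted p = 0.0539). Of 15 lipid droplet and lipolysis genes 7 rose and 1 fell, with 4 rises left without 48 h liver B or C. Cd36, the fatty acid carrier, read 9.499, 9.86 and 9.79 in sham, 9.34, 9.33 and 9.79 at 24 h and 12.03, 11.51 and 11.88 at 48 h, 4.98-fold higher (log2 difference 2.32, adjusted p = 0.000509) and above sham (log2 difference from sham 2.09, adjusted p = 0.00365). Cideb, a droplet protein, rose too (log2 difference 1.51, adjusted p = 0.00017), as did Mgll, a monoglyceride lipase (log2 difference 1.30, adjusted p = 0.000448). Cidec, a droplet protein of fatty liver, read 9.07, 9.74 and 10.28 at 24 h and 9.48, 9.23 and 8.75 at 48 h against 4.13, 4.15 and 4.39 in sham, and was not called between the times (adjusted p = 0.264).

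Amino acid breakdown had 14 rises and 3 falls among 27 genes (median 0.81). The rises numbered 8 without 24 h liver C and 9 without 24 h liver B or 48 h liver C. Got1, the cytosolic aspartate aminotransferase, rose from 11.64, 11.21 and 11.42 to 13.68, 13.84 and 13.82 (log2 difference 2.36, adjusted p = 0.000183). Kynu and Kmo, of the kynurenine route of tryptophan, rose from 8.13, 7.85 and 6.87 to 11.01, 10.87 and 11.02 (log2 difference 3.35, adjusted p = 0.000837) and from 11.69, 11.69 and 11.32 to 12.39, 12.48 and 12.27 (log2 difference 0.81, adjusted p = 0.00273). Hal, histidine ammonia-lyase, rose from 8.93, 9.88 and 9.03 to 11.64, 12.37 and 11.82 (log2 difference 2.67, adjusted p = 0.00172). Of these, Kmo was still below sham (log2 difference from sham -0.69, adjusted p = 0.0141). Among 12 genes of the urea cycle and ammonia handling 6 rose and 2 fell. Car5a, the mitochondrial carbonic anhydrase that supplies bicarbonate, rose from 9.24, 7.51 and 7.12 to 11.13, 10.94 and 11.77 (log2 difference 3.32, adjusted p = 0.00397), and Slc25a13, the aspartate-glutamate carrier citrin, from 9.62, 9.08 and 8.13 to 11.98, 11.80 and 11.08 (log2 difference 2.68, adjusted p = 0.00299). Rhbg, an ammonia transporter, fell from 8.12, 8.26 and 7.97 to 7.18, 6.92 and 7.44 (log2 difference -0.93, adjusted p = 0.00477). In gluconeogenesis and glycogen metabolism 4 of 17 rose (23.5%) and 2 fell (11.8%), beside 14.6% and 13.1% of all genes. The rises were 10 without 24 h liver A. Slc2a2, the glucose transporter of hepatocytes, rose from 11.79, 11.34 and 11.61 to 12.33, 12.41 and 12.37 (log2 difference 0.79, adjusted p = 0.0032) and stayed below sham (log2 difference from sham -1.08, adjusted p = 0.00509). Pck1, which commits carbon to gluconeogenesis, read 12.60, 14.82 and 14.28 at 24 h and 15.35, 15.50 and 15.15 at 48 h. Every 48 h liver was higher, but the 24 h livers scattered, with A lowest, and it was not called (adjusted p = 0.0774).

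Sterol genes rose in part and were mostly below sham at 48 h. Of 20 genes of sterol synthesis and uptake tested 8 rose and 2 fell (median 0.79). At 48 h 16 of the 20 were below sham, beside 475 of all 12071 genes. The rises numbered 4 without 24 h liver C and 5 without 24 h liver B. Dhcr7, the last reductase of cholesterol synthesis, read 12.63, 12.38 and 11.99 in sham, 7.71, 7.85 and 8.16 at 24 h and 10.60, 10.28 and 9.72 at 48 h (log2 difference 2.29, SE 0.26, adjusted p = 0.0013), and its 48 h livers lay between the other groups without touching either. Insig1, a sterol-responsive brake on the pathway, rose from 10.09, 9.54 and 9.86 to 10.91, 11.02 and 11.46 (log2 difference 1.30, adjusted p = 0.00827). The falls were Tm7sf2, a sterol reductase, and Ebp, a sterol isomerase. Tm7sf2 read 12.73, 12.81 and 12.69 in sham, 12.83, 12.67 and 12.68 at 24 h and 11.13, 11.27 and 11.29 at 48 h, with sham and 24 h livers overlapping and the 48 h livers below both (log2 difference -1.49, SE 0.08, adjusted p = 0.000141). Ebp fell from 12.36, 12.62 and 12.83 to 11.57, 11.27 and 11.79 (log2 difference -1.06, adjusted p = 0.00348).

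Fatty acid and triglyceride synthesis had 8 rises and 2 falls among 20 genes (median 0.61), with 4 rises left without 48 h liver A or B and 5 without sham liver B. Dgat1, which makes triglyceride from diglyceride, rose from 4.59, 5.87 and 5.96 to 8.51, 8.37 and 8.92 (log2 difference 3.12, adjusted p = 0.00156), Agpat2 from 10.79, 11.63 and 11.40 to 13.31, 13.44 and 12.89 (log2 difference 1.94, adjusted p = 0.00315), and the elongase Elovl5 from 11.07, 11.12 and 11.33 to 13.10, 12.92 and 12.90 (log2 difference 1.80, adjusted p = 0.000141). Scd1, the desaturase that makes oleate, moved against them. It read 14.18, 14.32 and 13.57 in sham, 13.89, 14.00 and 13.91 at 24 h and 9.80, 11.35 and 9.42 at 48 h. The 24 h livers lay within the sham range, and the level was 13.4-fold lower at 48 h, with no overlap (log2 difference -3.74, SE 0.48, adjusted p = 0.00191). Srebf1, the transcription factor that drives lipogenesis, read 7.64, 9.15 and 8.80 at 24 h and 10.55, 11.54 and 9.63 at 48 h (log2 difference 2.04, adjusted p = 0.0383). Its call was lost in 6 of the 9 fits without 1 array, those without 24 h liver A or C, 48 h liver A or B, or sham liver A or B.

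**Figure D3:**
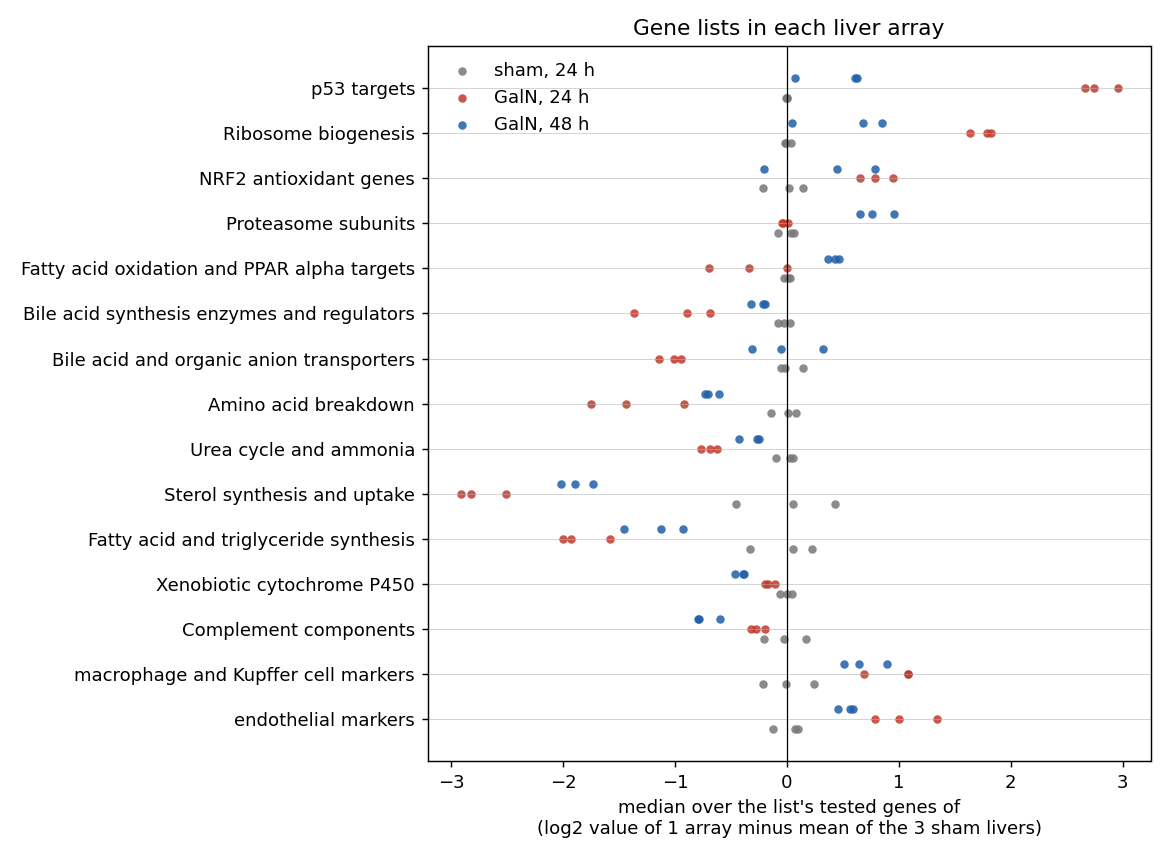
For each gene list (vertical axis) and each of the 9 liver arrays, the median over the list's tested genes of the array's log2 value minus the mean of the 3 sham livers (horizontal axis), with sham in grey, 24 h in red and 48 h in blue. The p53 and ribosome biogenesis lists returned towards 0, proteasome subunits left 0 only at 48 h, and sterol genes stayed between 24 h and sham.

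Enzymes of uridine and UDP-sugar metabolism, the route that GalN enters, moved in both directions. Of 21 tested, 8 rose and 4 fell (median 0.40). Ctps2, a CTP synthetase that consumes UTP, read 7.08, 6.76 and 6.91 in sham, 5.35, 5.74 and 5.99 at 24 h and 8.79, 9.004 and 9.30 at 48 h. Its 48 h livers were above every other liver, 10.1-fold over 24 h (log2 difference 3.34, SE 0.21, adjusted p = 0.000233) and above sham as well (log2 difference from sham 2.11, adjusted p = 0.00417). Cad, which starts the making of new pyrimidines, fell from 6.40, 6.76 and 6.45 to 4.38, 4.94 and 3.95, at least 4.32-fold (log2 difference -2.11, adjusted p = 0.00126). Galt, the uridylyltransferase of the galactose pathway, rose from 9.20, 8.86 and 8.72 to 10.69, 10.54 and 10.62 (log2 difference 1.69, adjusted p = 0.00127), beside 10.82, 10.78 and 10.21 in sham. Gne, which starts sialic acid synthesis from a UDP-sugar, rose from 8.40, 8.31 and 7.85 to 10.46, 10.53 and 10.66 (log2 difference 2.37, adjusted p = 0.00358), but its other expressed probe set moved the opposite way.

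Several lists of drug-metabolising enzymes and secreted plasma proteins had more falls than rises. Of 23 cytochrome P450 genes of xenobiotic metabolism 10 fell and 1 rose (median -0.21), with 6 falls without 24 h liver C. Cyp1a2, which oxidises caffeine and other drugs, read 13.97, 13.95 and 14.03 in sham, 13.67, 13.72 and 13.87 at 24 h and 12.43, 13.12 and 12.26 at 48 h (log2 difference -1.15, SE 0.21, adjusted p = 0.0065). Sham and 24 h livers were close, and the 48 h livers lay below both. Cyp2c54 fell from 13.51, 12.94 and 13.07 to 12.09, 11.82 and 11.94 (log2 difference -1.22, adjusted p = 0.00291) and Cyp2f2 from 14.68, 14.68 and 14.56 to 13.77, 14.01 and 13.31 (log2 difference -0.94, adjusted p = 0.00635). The Cyp2c genes are near-identical, so reads on Cyp2c54 may include its relatives. Of 19 complement components 8 fell (42.1%) and 2 rose (10.5%), beside 13.1% and 14.6% of all genes. The falls were 4 without 24 h liver B or C or 48 h liver A. Hc, complement C5, fell from 13.03, 12.93 and 13.001 to 11.79, 11.99 and 11.69 (log2 difference -1.17, adjusted p = 0.00869), and C8b, of the membrane attack complex, from 12.09, 12.41 and 12.04 to 11.10, 11.11 and 11.03 (log2 difference -1.10, adjusted p = 0.0107). Mbl1, a mannose-binding lectin, rose from 9.85, 10.30 and 9.68 to 11.61, 11.01 and 12.22 (log2 difference 1.67, adjusted p = 0.00675).

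Of 22 coagulation genes 7 fell (31.8%) and 4 rose (18.2%), beside 13.1% and 14.6% of all genes. The rises were 2 without 48 h liver A or B or sham liver A or B. F2, prothrombin, fell from 14.67, 14.69 and 14.70 to 14.21, 14.31 and 14.00 (log2 difference -0.52, adjusted p = 0.00414), and Serpinc1, antithrombin, from 14.94, 14.89 and 14.90 to 14.35, 14.49 and 14.50 (log2 difference -0.47, adjusted p = 0.00182). Serpinf2, the plasmin inhibitor, rose from 12.03, 12.39 and 12.39 to 13.65, 13.95 and 13.30 (log2 difference 1.36, adjusted p = 0.00205). Of 20 albumin, carrier and lipoprotein genes 8 fell (40%) and 3 rose (15%), the rises near their share among all genes. The falls ran from -0.23 to -0.43. Alb read 16.56, 16.35 and 16.47 at 24 h and 16.15, 16.30 and 16.18 at 48 h (adjusted p = 0.0911), and Ttr, transthyretin, 16.48, 16.41 and 16.44 and 16.07, 16.19 and 16.05 (log2 difference -0.34, adjusted p = 0.00597). Mttp, which loads lipid onto apolipoprotein B, rose from 11.91, 12.17 and 11.65 to 13.46, 13.64 and 13.12 (log2 difference 1.498, adjusted p = 0.00133). Of 24 acute phase proteins 3 rose and 3 fell, 12.5% each way, near the shares among all genes. Crp rose from 10.34, 11.60 and 11.22 to 13.43, 13.45 and 12.96 (log2 difference 2.23, adjusted p = 0.0026). Saa1 and Lcn2, inducible acute phase genes, scattered at 24 h (8.55, 11.93 and 12.998 for Saa1 and 8.72, 11.29 and 11.79 for Lcn2) and were not called (adjusted p = 0.965 and 0.913). Among 16 genes of male growth hormone response and steroid metabolism 6 fell (37.5%) and 3 rose (18.8%), with 1 rise without 48 h liver B or C or sham liver B. Cyp4a12a, a male-type hydroxylase, fell from 12.94, 13.23 and 12.94 to 12.26, 11.63 and 11.29 (log2 difference -1.31, adjusted p = 0.0106). Hsd3b5, a male-specific steroid enzyme, read 13.11, 12.94 and 13.47 in sham, 4.93, 7.51 and 6.49 at 24 h and 9.86, 9.23 and 8.73 at 48 h, a rise (log2 difference 2.96, adjusted p = 0.0123) that left it below sham (log2 difference from sham -3.90, adjusted p = 0.0132).

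**Figure D4:**
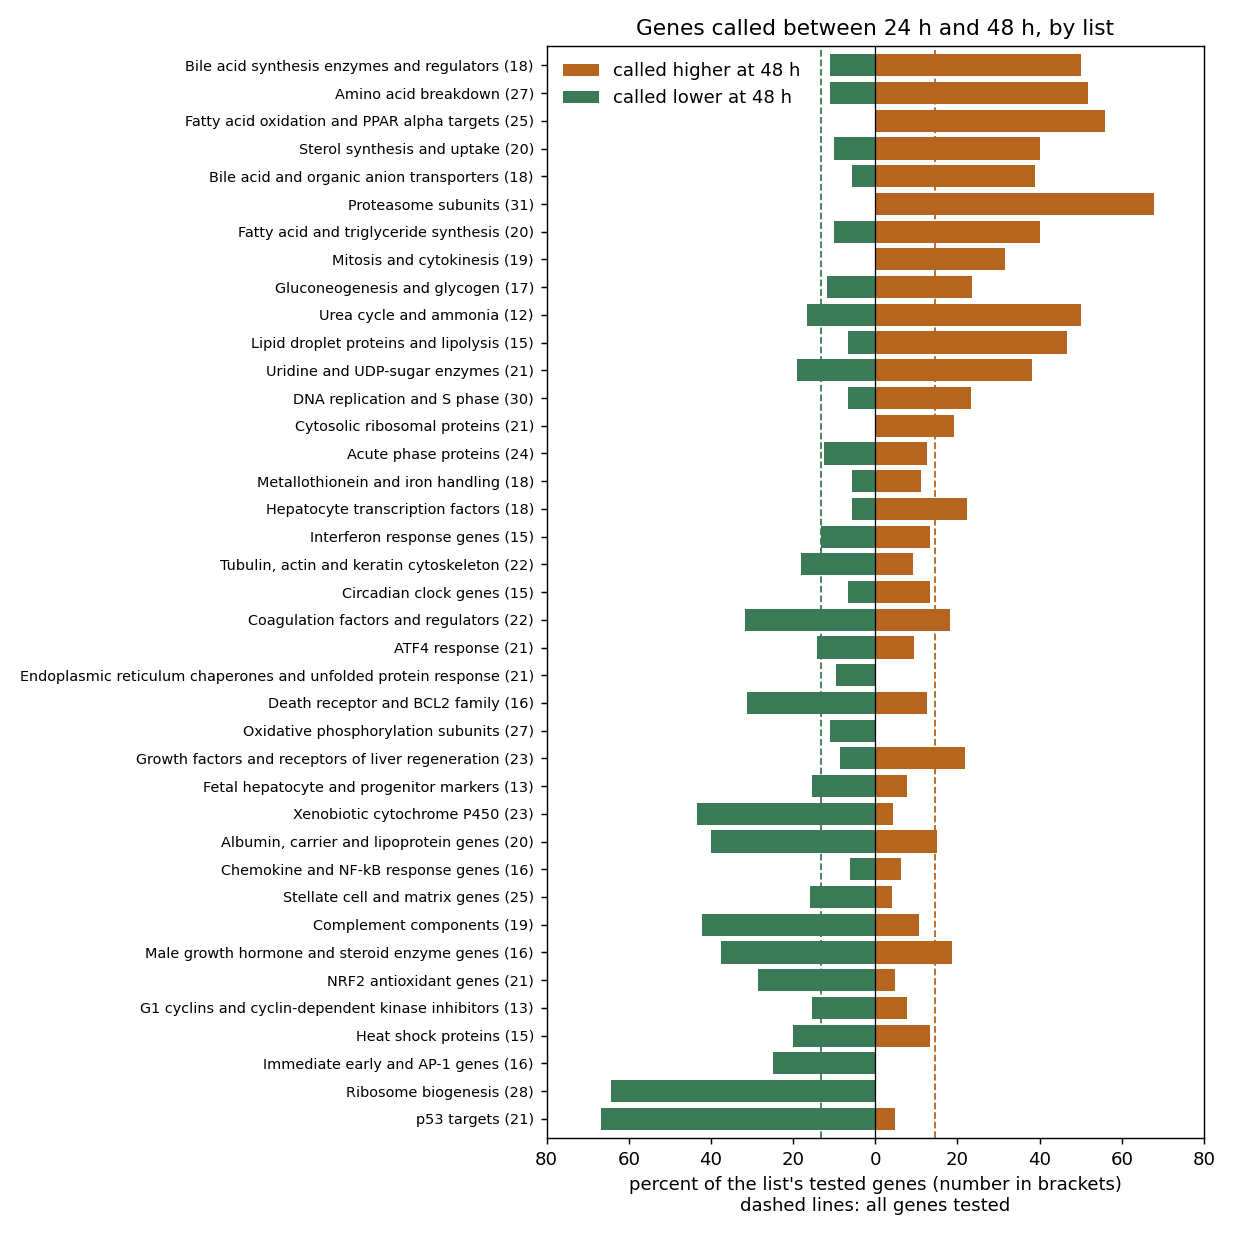
Percent of each list's tested genes (number in brackets) called higher at 48 h than at 24 h (orange, to the right) and lower (green, to the left), for 39 lists ordered by their median difference. Dashed lines give the shares over all 12071 genes, 14.6% higher and 13.1% lower, and the longest bars are those of proteasome subunits to the right and of p53 targets and ribosome biogenesis to the left.

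Cell cycle genes rose in part, at levels that ranged from the floor of the table upwards. Of 19 genes of mitosis and cytokinesis tested, of 33 with a probe set, 6 rose and none fell (median 0.61). Cdk1, the kinase that starts mitosis, read 3.87, 3.91 and 3.82 in sham, 3.76, 3.76 and 3.74 at 24 h and 5.32, 5.09 and 5.39 at 48 h, at least 2.86-fold higher and with no overlap (log2 difference 1.52, SE 0.08, adjusted p = 0.00017). Its call was lost in the fit of all 18 arrays. Ect2, needed for cytokinesis, rose from 2.65, 2.65 and 2.54 to 5.17, 4.94 and 6.49 (log2 difference 2.92, adjusted p = 0.00191), and Mad2l1, of the spindle checkpoint, from 6.72, 6.46 and 5.96 to 7.77, 7.60 and 7.97 (log2 difference 1.40, adjusted p = 0.00555). Mki67, the usual marker of cycling cells, read 2.55, 2.55 and 2.33 at 24 h and 3.81, 5.39 and 2.55 at 48 h, and Top2a 2.50, 2.50 and 2.50 and 2.50, 3.36 and 3.46. Both were near the floor in most livers and were not called (adjusted p = 0.129 and 0.0918). Of 30 DNA replication genes 7 rose (23.3%) and 2 fell (6.67%), beside 14.6% and 13.1% of all genes. The rises were 4 without any of the 24 h livers or sham liver B. The falls were 1 without 24 h liver B or C or any of the 48 h livers. Tk1, thymidine kinase, rose from 6.10, 5.96 and 4.62 to 7.69, 7.85 and 8.42 (log2 difference 2.42, adjusted p = 0.0046), and Cdt1, which licenses replication origins, fell from 8.96, 8.23 and 8.81 to 6.04, 6.44 and 5.96 (log2 difference -2.52, adjusted p = 0.00107). Among 13 G1 cyclins and inhibitors Cdk4 fell from 9.58, 9.58 and 9.75 to 8.63, 8.78 and 8.35 (log2 difference -1.05, adjusted p = 0.0017). Ccnd1, cyclin D1, read 7.89, 8.97 and 9.60 at 24 h and 7.78, 8.36 and 5.99 at 48 h, with overlapping groups (adjusted p = 0.158).

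Afp, alpha-fetoprotein, is made by the fetal liver and by regenerating hepatocytes. It read 7.95, 7.39 and 5.605 in sham, 6.96, 7.69 and 7.997 at 24 h and 10.36, 11.10 and 11.69 at 48 h. All 48 h livers were above every other liver, 11.3-fold over 24 h (log2 difference 3.50, SE 0.65, adjusted p = 0.00726), and above sham (log2 difference from sham 4.07, adjusted p = 0.0131). Both of its other expressed probe sets rose. It was the only rise among the 13 fetal and progenitor markers tested (7.69%). Called lower were 2 of the 13 (15.4%), near the share among all genes. Of those, Igf2 was below the detection level in all 9 liver arrays, so its call is between background readings. Of 23 growth factors and receptors of liver regeneration 5 rose (21.7%) and 2 fell (8.70%), beside 14.6% and 13.1% of all genes. The rises were 3 without any of the 24 h livers or sham liver A or B.  Igfbp1, a binding protein known as an early gene of regeneration, read 11.74, 11.19 and 12.17 in sham, 10.04, 11.02 and 11.20 at 24 h and 14.05, 13.99 and 12.72 at 48 h (log2 difference 2.84, SE 0.47, adjusted p = 0.00487), with liver C lowest among the 48 h livers. Insr, the insulin receptor, rose from 9.12, 9.06 and 8.61 to 10.67, 11.07 and 10.29 (log2 difference 1.75, adjusted p = 0.0121). Ghr, the growth hormone receptor, fell by its chosen probe set (log2 difference -0.83, adjusted p = 0.00533), but neither of its 2 other expressed sets moved that way. Of 18 hepatocyte transcription factors 4 rose (22.2%) and 1 fell (5.56%), the fall below its share among all genes. The rises were 2 without 24 h liver A or C. Nr1i3, the xenobiotic receptor CAR, read 8.67, 9.25 and 8.78 in sham, 7.13, 7.32 and 6.32 at 24 h and 9.92, 10.09 and 10.38 at 48 h, 9.26-fold higher (log2 difference 3.21, SE 0.29, adjusted p = 0.000623) and above sham (log2 difference from sham 1.24, adjusted p = 0.0411). Nr1h3, the oxysterol receptor LXR alpha, rose from 8.50, 7.91 and 8.31 to 9.57, 9.37 and 9.35 (log2 difference 1.19, adjusted p = 0.00312).

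Inflammatory genes moved in both directions. Of 16 chemokine and NF-kB response genes 1 rose and 1 fell, shares below those among all genes. The fall was Icam1, the leukocyte adhesion molecule, from 9.04, 8.73 and 8.45 to 6.45, 7.75 and 6.82 (log2 difference -1.73, adjusted p = 0.00866), which stayed above sham (log2 difference from sham 2.01, adjusted p = 0.0144). The rise was Ikbke, a kinase of innate signalling (log2 difference 2.85, adjusted p = 0.00344). Of 15 interferon response genes 2 rose and 2 fell, 13.3% each way, near the shares among all genes. The falls, Ifit2 and Oasl2, were both lost without 24 h liver B or C or any sham liver. Irf7, which amplifies the interferon response, read 5.001, 5.51 and 5.001 in sham, 6.06, 6.43 and 5.41 at 24 h and 7.31, 8.16 and 7.98 at 48 h (log2 difference 1.85, adjusted p = 0.00637) and was above sham at 48 h (log2 difference from sham 2.65, adjusted p = 0.00697). Of 3 erythroid markers tested 1 fell and 2 were not called, with a median of -0.004. The fall was Alas2, the erythroid enzyme of haem synthesis, from 9.49, 9.86 and 9.81 to 8.99, 8.38 and 8.66 (log2 difference -1.04, adjusted p = 0.00551). Hba-a1 and Epb42 were below the detection level in all 9 liver arrays. The summed erythroid marker signal was 1245 to 1471 in the sham livers, 759 to 971 at 24 h and 373 to 550 at 48 h. Alas2 was its most abundant member, so the sum mostly repeats that gene.

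Among the genes tested in liver, the kidneys of the same series gave few changes over the same interval. These genes passed a filter on the 9 liver arrays alone. Genes high only in kidney were therefore left out, and genes near the floor in kidney were kept. In a fit of all 18 arrays 136 genes (1.13%) were called between 48 h and 24 h in kidney. The change in liver differed from that in kidney for 3324 of the 12071 genes (27.5%). The 24 genes with the largest liver changes were chosen by the liver part of this contrast, so their differences from kidney are a description. Of the 24, 23 were called different, among them Ddias, Eda2r and Mapk8ip3, which entered only through their 24 h livers. Some of the 24 were below the detection level in all 6 of these kidney arrays, where a change could not be measured. Upp2 read 3.99, 6.32 and 6.32 in the 24 h kidneys and 6.32, 7.02 and 9.53 in the 48 h kidneys, and was not called different (adjusted p = 0.15). Of the mitosis genes 8 of the 19 tested rose in kidney as well, with a median of 1.75, beside 79 of all 12071 genes. In 48 h kidneys A, B and C Cdk1 read 9.46, 6.29 and 5.71 and Ect2 9.47, 7.59 and 6.91, both highest in A. Pttg1 was lowest in A (11.82, 12.18 and 11.95) and was not called in kidney. No fit left out a kidney array, so how far the count rests on kidney A was not tested. None of the 31 proteasome subunits was called in kidney, which is near the 1.13% among all genes and says little about these subunits.

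**Figure D5:**
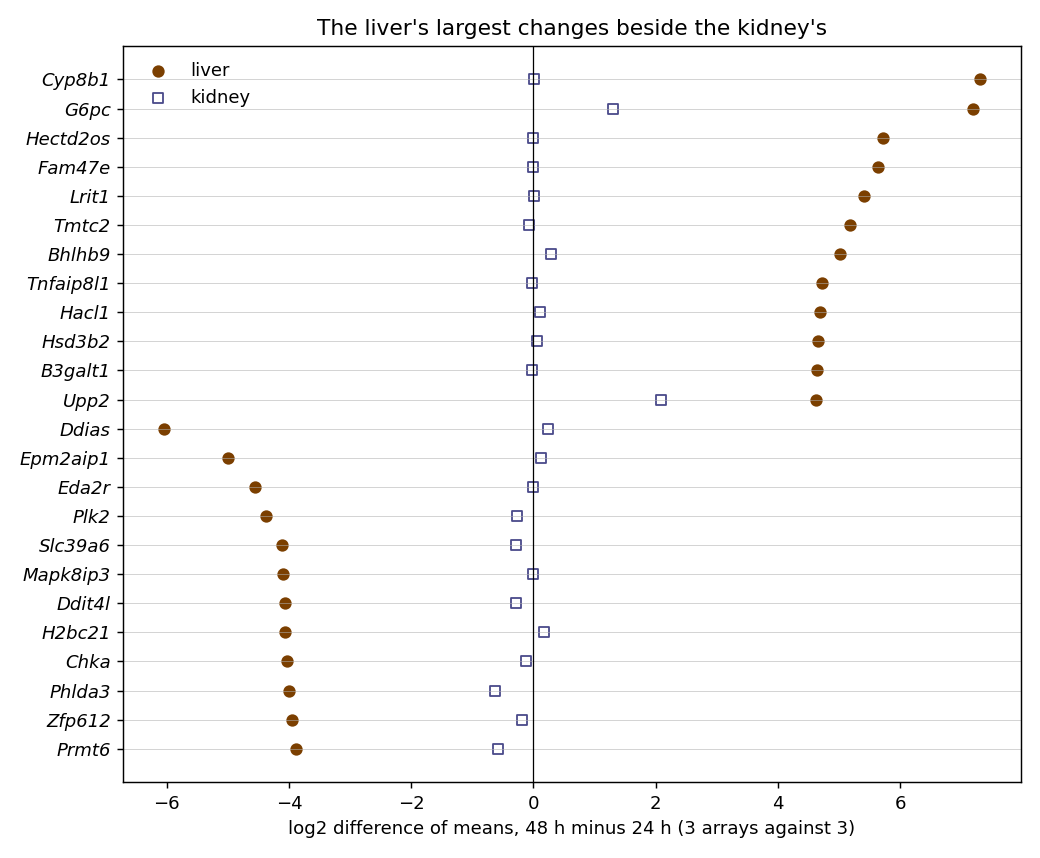
Log2 difference of means between 48 h and 24 h (horizontal axis, 3 arrays against 3) for the 24 genes with the largest changes in liver, in liver (filled circles) and kidney (open squares). Kidney differences lay between -0.62 and 2.08.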

How the data were processed

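Total RNA of liver and kidney was hybridised to 18 Affymetrix arrays. The authors deposited a log2 gcRMA value for each probe set and array, per the labels. No GCRMA version is given in the sources used here. Of 45101 probe sets, 64 are controls, 34945 are named for 1 gene, 932 for several and 9160 for none, and only sets named for 1 gene were used. Genes entered the test when at least 3 of the 9 liver arrays read above their own median. Groups were compared two-sided with limma 3.58.1 (R 4.3.3), its variance prior following intensity, on the 9 liver arrays. The change in liver was set against that in kidney as a contrast in all 18 arrays. Deposited values were not normalized again. The method was tested on simulated data.

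The comparison and the 48 gene lists (1058 entries, 961 with a probe set) were chosen with earlier results of these data known, so no list is independent support, and lists were described by counts and medians without a set test. Named were the 12 largest rises and 12 largest falls among calls with no overlap of the 3 arrays and a higher group more than 1 above the lowest value (unnamed clones skipped), in each list at most 4 calls taken by ascending p, and a panel, 188 genes in all. Psmb5, Psmb6 and Psmc6 were named for their promoters after their values were seen. Alternatives were other filters, probe set choices, normalizations, limma options and array sets, the array letter as a block, leaving out each array, and a rank product test with 100 permutations. List genes without a probe set of their own were not analysed here.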

Additional observations from a re-analysis of the deposited data

Results flagged for a closer look

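The change from 24 h to 48 h was different in liver and kidney for 23 of the 24 genes with the largest liver changes, by the contrast between the organs in limma over 18 arrays. Those 24 genes were chosen for their liver change, so these differences are a description. Among the rises, the liver change exceeded the kidney change (log2) by 7.29 for Cyp8b1, 5.89 for G6pc, 5.71 for Hectd2os, 5.64 for Fam47e, 5.41 for Lrit1, 5.24 for Tmtc2, 4.74 for Bhlhb9, 4.75 for Tnfaip8l1, 4.58 for Hacl1, 4.61 for Hsd3b2, 4.67 for B3galt1, with adjusted p-values of 6.73e-07 to 0.00418. Among the falls, the liver change minus the kidney change was -6.29 for Ddias, -5.12 for Epm2aip1, -4.55 for Eda2r, -4.10 for Plk2, -3.83 for Slc39a6, -4.09 for Mapk8ip3, -3.78 for Ddit4l, -4.24 for H2bc21, -3.90 for Chka, -3.37 for Phlda3, -3.77 for Zfp612, -3.31 for Prmt6, with adjusted p-values of 6.73e-07 to 0.00825 for all but Ddias, Eda2r and Mapk8ip3. Those 3 entered the test only through their 24 h livers, so no p is given for them. Cyp8b1, Hectd2os, Fam47e, Lrit1, Tmtc2, B3galt1, Ddias, Eda2r and Mapk8ip3 were below the detection level of 3.213 in all 6 of these kidney arrays, where a change could not be measured.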

How the results depend on the processing

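The number of called genes stayed within 1.5 times of 3355 under every alternative run except the rank product test, which called 468 genes (236 higher and 232 lower, all 468 changed at least 2-fold), 439 of them among the 3355. With all probe sets in place of 1 per gene, 2461 sets were lower and 3260 changed at least 2-fold, of 20403 tested. Leaving out 1 array gave 2614 (without 24 h liver C) to 3465 (without 48 h liver C) calls, 1371 to 1861 higher, 1243 to 1604 lower and 1796 to 2143 of at least 2-fold. With the array letter as a replicate block 2741 genes were called, 2643 of them shared with the 3355. Deviations of arrays with the same letter correlated between -0.111 and 0.078, so the letters were not taken to pair samples. Of the 174 named calls 151 held in each fit without 1 array and 67 in the rank product test. With the mean of a gene's probe sets the difference reversed for Rps20 (-0.038), Ghr (0.16) and Fn1 (-0.35), and with all probe sets tested for Ghr (0.58), whose probe sets disagree. The calls of Cdk1, Cyp4a12a, Serpinc1, Alas2, Dcn and Hamp were lost in the fit of all 18 arrays, those of Psma3, Gne and B3galt1 with the mean of probe sets, that of Ttr with median centring, and those of Hectd2os, Cdkn1a, Dcn, Ecm1 and Srebf1 with only the 6 arrays compared. For the other changes with the setting the cause was not tested. Genes near the lowest value of the table give lower bounds only, and 3 arrays a group limit what could be called.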

Other observations

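Among 15 circadian clock genes 2 rose (13.3%) and 1 fell (6.67%), near or below the shares among all genes. Dbp, a clock output factor, read 12.81, 13.32 and 13.27 in sham, 9.51, 10.17 and 10.02 at 24 h and 11.02, 11.22 and 11.60 at 48 h (log2 difference 1.38, adjusted p = 0.00548), so it rose between the times but was still below sham (log2 difference from sham -1.85, adjusted p = 0.00749). Cry1, a repressor of the clock, read 7.73, 7.54 and 7.28 at 24 h and 8.55, 9.08 and 8.55 at 48 h (log2 difference 1.21, adjusted p = 0.0037) and was above sham at 48 h (log2 difference from sham 1.07, adjusted p = 0.0165). Clock genes vary with the hour of death, which the labels used here do not give.

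Of 22 tubulin, actin and keratin genes 4 fell (18.2%) and 2 rose (9.09%), beside 13.1% and 14.6% of all genes. Actg1, cytoplasmic gamma-actin, fell from 13.96, 14.52 and 14.68 to 12.64, 12.87 and 11.64 (log2 difference -2.00, adjusted p = 0.00835), back to its 12.77, 12.14 and 11.86 in sham. The falls numbered 2 without 24 h liver A or 48 h liver A and 1 without 24 h liver B, 24 h liver C or 48 h liver C, and the rises 4 without 48 h liver C. In metallothionein and iron handling 2 of 18 genes rose (11.1%) and 1 fell (5.56%), below the shares among all genes. Hjv, hemojuvelin, a co-receptor that controls hepcidin, rose from 9.42, 9.82 and 8.79 to 10.83, 10.83 and 10.56 (log2 difference 1.39, adjusted p = 0.00764). Hamp, hepcidin, read 15.07, 15.23 and 14.85 at 24 h and 15.61, 15.87 and 15.82 at 48 h (log2 difference 0.72, adjusted p = 0.0404), and its call was lost without any of the 6 GalN livers or sham liver B. Of 27 oxidative phosphorylation subunits 3 fell (11.1%) and 0 rose, below the shares among all genes. Among the falls was Sdha, from 12.88, 12.73 and 12.70 to 11.82, 12.10 and 12.27 (log2 difference -0.71, adjusted p = 0.00741). Without 48 h liver C 9 of the 27 fell, and without 48 h liver A 1. Of 25 stellate cell and matrix genes 4 fell (16%) and 1 rose (4%), beside 13.1% and 14.6% of all genes. The falls numbered 1 without 24 h liver A, 24 h liver C or 48 h liver A and 7 without 48 h liver B.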
